A study of Mus musculus with 4 samples.

Results

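The genes described here are 7 genes of the B cell and immunoglobulin system, Ighm, Igkc, Jchain, Cd79a, Cd79b, Ms4a1 and Blnk, out of 54146 genes listed in the count table. They were chosen by symbol, through the Ensembl identifiers of mouse GENCODE release M21. All 7 had a row in the table and at least 1 count in 3 or more libraries. The RNA came from tumor-associated macrophages (TAMs) of MCA205 tumors, a mouse fibrosarcoma grown under the skin of the right flank.

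All mice were female C57BL/6 mice of 8 to 16 weeks. The propranolol group, 2 libraries, drank water with propranolol at 0.5 g/L from the day of tumor inoculation, and the vehicle group, 2 libraries, was the control without it. Propranolol is a nonselective blocker of beta-adrenergic receptors, and the comparison asks how it alters gene expression in TAMs. CD45+ cells were enriched with magnetic beads and then sorted as live CD11b+ F4/80+ cells, a gate for myeloid cells with macrophage antigens that holds no marker of B cells and no exclusion of them. The libraries are called biological replicates by the study, and how many tumors went into each is not given in the sources used here, so p-values measure only the spread between these samples.

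B cells carry a receptor made of a membrane immunoglobulin and the signalling pair CD79A and CD79B, which passes the signal through kinases to the adaptor BLNK. Naive B cells use the heavy chain mu (Ighm) and a kappa (Igkc) or lambda light chain. Plasma cells secrete the immunoglobulin in large amounts, class switching replaces mu with gamma or alpha, and the J chain (Jchain) links secreted IgM and IgA into polymers. Several of these genes are not exclusive to B cells, since Blnk, for example, is also known from macrophages.

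The libraries held 13798249 counts for vehicle replicate 1, 23018142 for vehicle replicate 2, 39818103 for propranolol replicate 1 and 16424081 for propranolol replicate 2. Levels are given as CPM, counts per 1000000 of the TMM-scaled library, and a gene with 0 counts may reach 3 counts by counting error alone, which is 0.202, 0.119, 0.0824 and 0.196 CPM in these libraries in the same order. Intervals and limits of this kind cover counting error only.

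The sort label was checked against defining markers. Adgre1, which encodes F4/80, had 974 and 1006 CPM in the vehicle libraries and 1150 and 1099 CPM in the propranolol libraries, and Itgam, which encodes CD11b, had 358, 351, 369 and 312 CPM. Pax5, the transcription factor that defines B cells, was near 0, with 1 and 7 counts in the vehicle libraries and 4 and 16 counts in the propranolol libraries. The macrophage antigens were thus abundant in every library, while Pax5 did not exceed 1.05 CPM in any. In bulk RNA of this kind, fewer cells of a type and less RNA per cell cannot be told apart.

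Of the 7 genes, 6 passed the filter on low counts and were tested, and Cd79a did not. Genes that differed by more than 1.5-fold with an adjusted p under 0.05 in the edgeR quasi-likelihood test, with Benjamini-Hochberg adjustment over 14688 genes, are referred to as changed. By this rule 27.8% of all tested genes changed, 12.2% higher and 15.6% lower in propranolol. Igkc and Cd79b rose, which makes 2 of the 6 tested genes higher. Ms4a1 fell. Ighm, Blnk and Jchain did not pass. Ms4a1 passed the filter on low counts only through the vehicle libraries, where it was high, so its call supports no count and was left out here. The median log2 fold change of the 6 genes was 0.43, against -0.02 for all tested genes. With a correction for the GC content of genes, 12.6% of all genes changed, 7.64% higher and 4.99% lower, and of the 6 genes Igkc remained changed, while Cd79b and Ms4a1 no longer passed. Igkc, Jchain and Cd79b were higher in propranolol without overlap of the groups, which makes 3 of the 6 tested genes. Blnk was lower without overlap. So was Ms4a1, whose separation supports no count for the reason given above. The groups overlapped for Ighm, and the untested Cd79a was higher without overlap. Such separation was found in 72.6% of all tested genes, 35.8% higher and 36.8% lower.

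**Figure D1:**
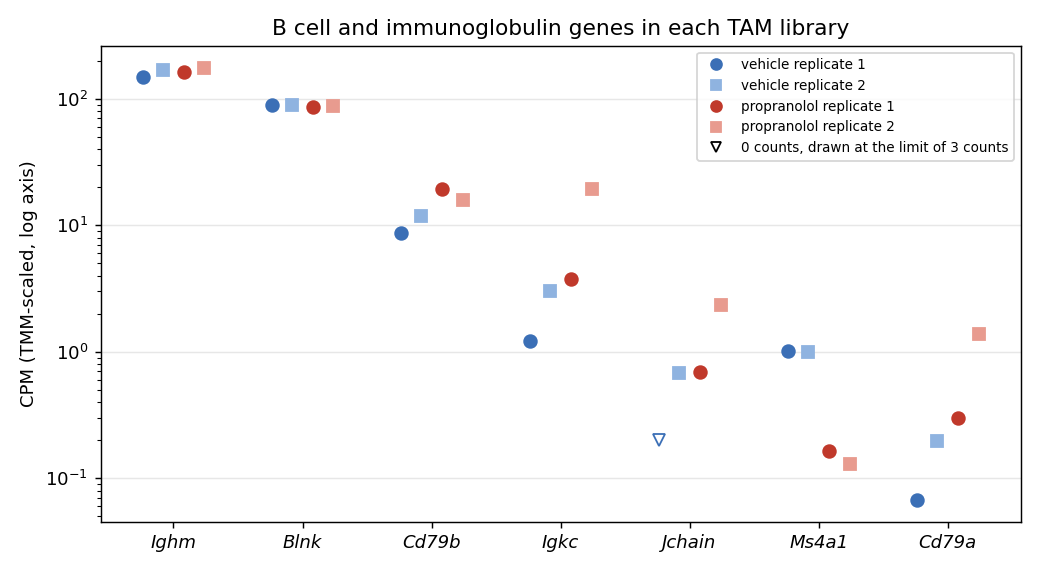
CPM of the 7 genes in each of the 4 TAM libraries on a log axis, blue for vehicle and red for propranolol, with an open triangle at the limit of 3 counts where a library had 0 counts. Ighm and Blnk lie close together in all libraries, Igkc, Jchain and Cd79a are highest in propranolol replicate 2, and both propranolol libraries are lowest for Ms4a1.

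Ighm, the constant region of the mu heavy chain (GRCm38 chr12:113418558-113422730, minus strand), was the most abundant of the 7. Its counts were 2215 and 4259 in the vehicle libraries and 5953 and 2697 in the propranolol libraries, which gave 149, 169, 164 and 176 CPM. The groups overlapped, with propranolol replicate 1 between the vehicle libraries. The log2 fold change of Ighm was 0.09 (SE 0.11, edgeR adjusted p = 0.516). Its sign turned with the GC correction, to -0.04, so no direction can be read for Ighm.

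Igkc, the kappa light chain constant region (chr6:70726435-70726966, plus strand), had 18 and 76 counts in the vehicle libraries and 136 and 295 counts in the propranolol libraries. Its level was 1.21 and 3.02 CPM in vehicle and 3.74 and 19.3 CPM in propranolol. Propranolol replicate 2 stood far above the rest, and propranolol replicate 1 was just above vehicle replicate 2. Igkc rose with propranolol by a log2 fold change of 2.33 (SE 0.67, edgeR adjusted p = 0.0183), and by 2.39 with the GC correction (adjusted p = 0.0315). Without propranolol replicate 2 the log2 fold change was 0.81 with an edgeR adjusted p of 0.217, in a range of 2.34e-14 to 0.217 over all alternatives, so 1 library decided this call. DESeq2 (adjusted p = 0.0887) and limma-voom (adjusted p = 0.199) did not call Igkc either.

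Jchain, which joins immunoglobulin units into polymers (chr5:88519809-88527891, minus strand), had 0 and 17 counts in vehicle and 25 and 36 counts in propranolol. Its level was 0.676 CPM in vehicle replicate 2, 0.687 CPM in propranolol replicate 1 and 2.35 CPM in propranolol replicate 2. The middle libraries, 1 from each group, were therefore nearly equal, and the outer ones set the difference. The log2 fold change was 1.90 (SE 0.98, edgeR adjusted p = 0.144), which did not pass. Jchain passed in 5 of 15 alternatives, among them without the filter on low counts (adjusted p = 0.0109), without propranolol replicate 1 (2.61, adjusted p = 0.0349) and without vehicle replicate 2, where no vehicle count was left, and the adjusted p ranged from 0.000959 to 0.582 over the alternatives.

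The signalling pair of the B cell receptor was measured at very different levels. Cd79b (chr11:106311341-106314762, minus strand) had 129, 297, 704 and 244 counts, that is 8.69 and 11.8 CPM in vehicle and 16.0 to 19.3 CPM in propranolol. Both propranolol libraries exceeded both vehicle libraries, and here replicate 1 was the higher propranolol library. Cd79b rose by a log2 fold change of 0.78 (SE 0.20, edgeR adjusted p = 0.0110) and passed with every single library left out, with values from 0.63 to 1.04, in fits that take the spread from the other group alone. With the GC correction it was 0.52 with an edgeR adjusted p of 0.0790, in a range of 0.000190 to 0.297 over all alternatives. Cd79a (chr7:24897381-24902197, plus strand), its partner in the receptor, had 1 and 5 counts in vehicle and 11 and 21 counts in propranolol, and was too low to be tested. Over the group sums of 6 and 32 counts the ratio of propranolol to vehicle was 4.13, with an exact counting interval of 1.70 to 12.1. Without propranolol replicate 2 the ratio was 2.01. Tested without the filter, Cd79a had a log2 fold change of 2.50 (SE 0.96, edgeR adjusted p = 0.0416), and with a library left out, where it passed the filter in 3 of 4 cases, the adjusted p ranged from 0.0392 to 0.261.

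CD79A and CD79B form a dimer in the B cell receptor, but their transcripts were not near each other in level. On the scale of TPM, which divides by the length of a gene and allows levels to be compared between genes, the mean of Cd79b was 23.9 in vehicle and 34.7 in propranolol. The mean TPM of Cd79a was 0.306 in vehicle and 1.64 in propranolol. The ratio of Cd79b to Cd79a TPM was 131, 60.5, 65.2 and 11.8 in vehicle replicates 1 and 2 and propranolol replicates 1 and 2. These ratios rest on 1, 5, 11 and 21 Cd79a counts in the same order, so the vehicle values are poorly bounded. The ratio was lowest in propranolol replicate 2, the library with the most Igkc and the most Cd79a.

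Ms4a1, which encodes CD20 of mature B cells (chr19:11249675-11266241, minus strand), moved the other way. It had 15 and 25 counts in vehicle and 6 and 2 counts in propranolol, that is 1.01 and 0.995 CPM against 0.165 and 0.131 CPM. The vehicle libraries were close to each other and both propranolol libraries were far below them. Ms4a1 fell by 2.67 on the log2 scale (SE 0.70, edgeR adjusted p = 0.0125). The 40 vehicle and 8 propranolol counts behind its call are few, and it was lost with any single library left out, with the sign kept and edgeR adjusted p between 0.0679 and 0.100. With the GC correction the log2 fold change was -1.90 (adjusted p = 0.0774), and the range over all alternatives was 0.00524 to 0.100.

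Blnk, the adaptor that links the kinase SYK to downstream signalling (chr19:40928927-40994535, minus strand), was nearly level. Its 1333, 2223, 3145 and 1345 counts gave 89.7 and 88.5 CPM in vehicle and 86.4 and 88.0 CPM in propranolol. The vehicle libraries were both above the propranolol libraries, by a margin of the size of the spread within a group. The log2 fold change was -0.03 (SE 0.10, edgeR adjusted p = 0.822). The sign turned with the GC correction, to 0.29 (adjusted p = 0.0497, the lowest over the alternatives being 0.0206 with the replicate block added), a change of under 1.5-fold, so no direction can be read for Blnk. In mean TPM, Ighm had 281 in vehicle and 254 in propranolol, Blnk 49.5 and 41.0, Igkc 13.3 and 61.8, Jchain 0.453 and 1.72 and Ms4a1 0.539 and 0.0672. Ighm thus headed the order in both groups. Blnk and Cd79b followed in vehicle, and Igkc came after Ighm in the propranolol mean, with a TPM of 104 in replicate 2 and 19.4 in replicate 1.

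**Figure D2:**
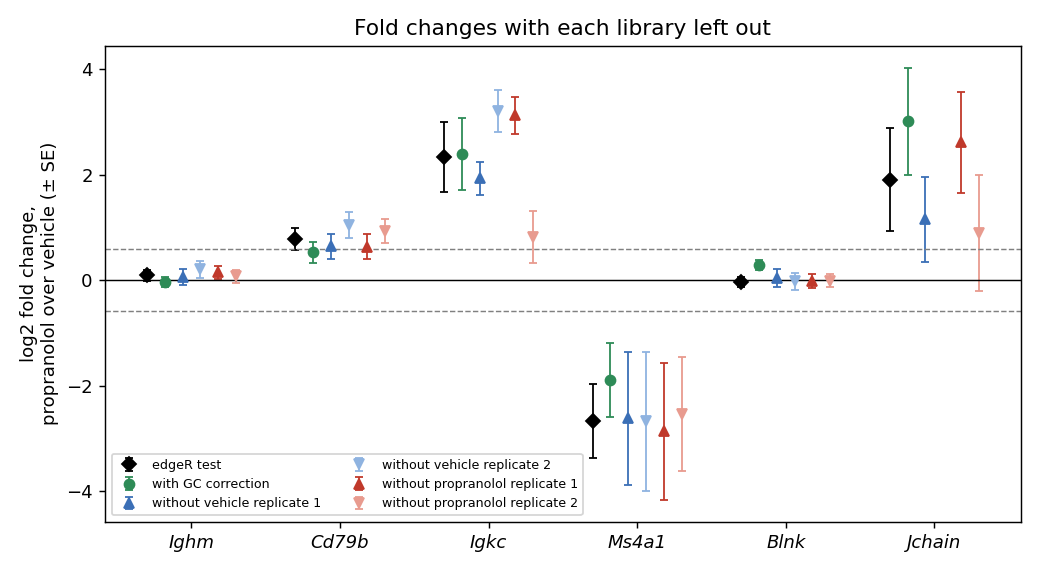
Log2 fold change of propranolol over vehicle with its SE for the 6 tested genes, from the edgeR test with all libraries (diamonds), with the GC correction and with each library left out, with dashed lines at 1.5-fold. Igkc is lowest without propranolol replicate 2, Ms4a1 stays below the lower line in each fit, Ighm and Blnk stay near 0, and the value of Jchain without vehicle replicate 2, where no vehicle count was left, is not drawn.

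Promoter sequence from RefSeq (GRCm38.p6) was found for 3 of the 7 genes. Those of Jchain and Cd79a are shown, and that of Blnk is left out because its window lies inside the GENCODE gene model. Each is written from 250 bases before the RefSeq start in the direction of the gene, for Jchain up to the start (chr5:88527898-88528147, minus strand) and for Cd79a up to its GENCODE gene model (chr7:24897247-24897380, plus strand). Capitals mark matches to the octamer ATGCAAAT or the E-box CAGGTG, motifs searched on both strands and known from binding sites of OCT factors and E proteins in B cells.
Jchain: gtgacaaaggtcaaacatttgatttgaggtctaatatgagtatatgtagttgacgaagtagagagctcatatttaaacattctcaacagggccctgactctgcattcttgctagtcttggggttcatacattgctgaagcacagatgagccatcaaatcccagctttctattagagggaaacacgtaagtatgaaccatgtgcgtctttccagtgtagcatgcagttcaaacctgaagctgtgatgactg
Cd79a: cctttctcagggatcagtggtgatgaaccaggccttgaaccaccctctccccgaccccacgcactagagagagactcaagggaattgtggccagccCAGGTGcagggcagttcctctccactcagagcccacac
The window of Cd79a held 1 E-box, which begins 154 bases before the start, and 9.75% of all promoters held one in the same stretch. Neither of the motifs was found in the window of Jchain, where 17.2% of all promoters held the E-box and 1.6% the octamer. The octamer was found in 0.843% of promoters over the stretch used for Cd79a, and not in Cd79a itself. A match describes the letters only.

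Beyond the 7 genes, the table lists 429 immunoglobulin gene rows, of which 90 had a count. Their summed level was 155 and 183 CPM in vehicle and 175 and 232 CPM in propranolol. Most of it was Ighm, and propranolol replicate 1 lay within the vehicle range. These sums are given as values without a test, and an exact permutation test of 2 libraries against 2 could not give a p under 0.333. Ighm made up 97.8% of the constant region counts in vehicle replicate 1 (Wilson 95% interval 97.1 to 98.3) and 95.2% in vehicle replicate 2 (94.6 to 95.8). The share was 95.0% (94.5 to 95.5) in the first propranolol library and 80.9% (79.5 to 82.2) in the second. The constant genes other than Ighm summed to 3.37, 8.51, 8.55 and 41.7 CPM in the same order, so that propranolol replicate 2 stood apart and the middle libraries were alike.

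**Figure D3:**
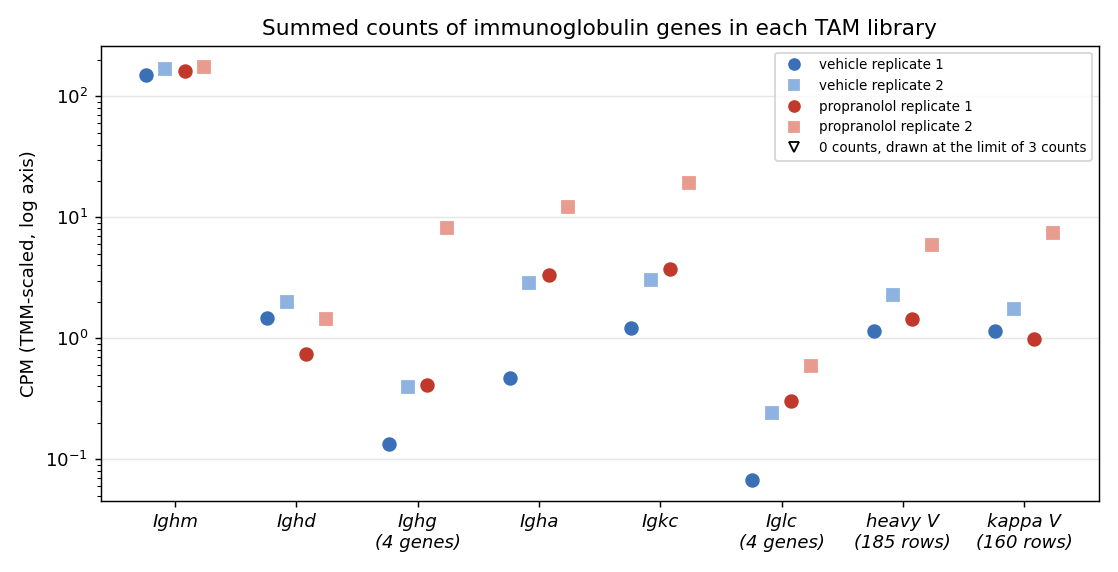
Summed CPM of immunoglobulin gene classes in each library on a log axis, blue for vehicle and red for propranolol. Ighm is level near 149 to 176 CPM, Igha, Igkc and the Ighg and Iglc genes are highest in propranolol replicate 2 and lowest in vehicle replicate 1, and Ighd does not share that order.

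The other heavy chain classes were low. Igha, the heavy chain of IgA, had 7, 72, 122 and 186 counts in vehicle replicates 1 and 2 and propranolol replicates 1 and 2, and rose by a log2 fold change of 2.08 (SE 0.70, edgeR adjusted p = 0.0358, and 0.0726 with the GC correction). The call of Igha was also lost with DESeq2, with upper-quartile factors and with limma-voom. The Ighg genes of IgG together had 2, 10, 15 and 125 counts. Of those in propranolol replicate 2, 82 fell on Ighg1 and 38 on Ighg2c, and the assignment among these similar genes is uncertain. The Ighg counts were thus concentrated in propranolol replicate 2, while Igha was also found in vehicle replicate 2 and propranolol replicate 1. Ighd, the delta chain of naive B cells, had 22, 50, 27 and 22 counts, with a log2 fold change of -0.74 (SE 0.52, edgeR adjusted p = 0.286), and Ighe had 0 counts in all libraries. Of the 12 other constant and surrogate light chain genes listed, 2 were tested, 1 was higher and none lower. That list had 3 higher genes without vehicle replicate 1, vehicle replicate 2 or propranolol replicate 1, and 0 without propranolol replicate 2.

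Several ratios between transcripts differed between the libraries. An antibody holds as many heavy as light chains, and there were 123 Ighm counts for each Igkc count in vehicle replicate 1, 56.0 in vehicle replicate 2, and 43.8 and 9.14 in the propranolol libraries. Per length, as TPM, the ratios were 34.7, 15.8, 12.3 and 2.58. With Ighm level, the order of these ratios follows from the division by Igkc and restates the order of Igkc. By contrast, the counts of Ighg and Igha genes for each Igkc count were 0.500, 1.08, 1.01 and 1.05, close to each other in all libraries except vehicle replicate 1, which had only 9 such counts. There were 4.24, 4.88 and 5.17 Igha counts for each Jchain count in vehicle replicate 2 and the propranolol libraries. These ratios rest on only 17, 25 and 36 Jchain counts. Vehicle replicate 1, with 7 Igha and 0 Jchain counts, gave no ratio. Kappa held 94.7%, 92.7%, 92.5% and 97.0% of the light chain constant counts.

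Variable genes, which encode the antigen-binding part of the chains, had 34 and 104 counts in vehicle and 90 and 207 counts in propranolol. Of 377 variable gene rows, 72 had a count, 53 of them in a single library, 16 in 2 libraries, 3 in 3 and 0 in all 4. Most were thus seen in 1 library alone. There were 130, 74.7, 112 and 29.6 Ighm counts for each heavy chain variable count. The 3 variable genes with the highest mean CPM were Igkv6-15, with 2 counts in vehicle replicate 1 and 51 in propranolol replicate 2, Ighv1-69, with 2 counts in vehicle replicate 2 and 27 in propranolol replicate 2, and Ighv1-81, with 17 counts in vehicle replicate 2 and 8 and 7 in the propranolol libraries. The first of these made up 24.6% of the variable gene counts of propranolol replicate 2.

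Another pair of variable genes, singled out after their values were seen, was found in vehicle alone. Igkv14-126 had 9 and 15 counts in the vehicle libraries and 0 in both propranolol libraries, and Ighv11-2 had 8 and 10 counts against 0. Against a limit of 3 counts over the group, Igkv14-126 was at least 10.3-fold lower and Ighv11-2 at least 7.76-fold lower in propranolol, and no test is given because they were chosen for this pattern. Genes of the reverse pattern were found as well, such as Ighv1-72 with 0 counts in vehicle and 1 and 12 counts in propranolol, and Ighv1-82 with 0 in vehicle and 1 and 11 in propranolol. The chains from Igkv14-126 and Ighv11-2 are known to occur together in B-1 cells that bind phosphatidylcholine. Cr2, the complement receptor CD21 of mature B cells, had 10 and 3 counts in vehicle and 0 in propranolol, the direction of Ms4a1. It was too low to be tested. Cxcr5, a further B cell surface gene, ran the other way. Its level was 0.606 and 0.597 CPM in vehicle and 1.35 and 1.64 CPM in propranolol, and it did not pass. These genes therefore give no common direction.

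Other genes of B cells were examined as lists. Of 20 further B cell surface and lineage genes, 13 were tested, Cd37 rose, H2-Ob and Cd180 fell, and 10 did not pass, with a median log2 fold change of -0.35. With the GC correction the median was -0.01, none of these 3 passed, and Bank1 did, with its sign turned from -0.35 to 0.64. Cd72, a receptor that restrains B cell activation, was the most abundant with 445 and 543 CPM in vehicle and 555 and 495 CPM in propranolol (log2 fold change 0.09, edgeR adjusted p = 0.565). Cd180, a relative of toll-like receptors, had 143 and 145 CPM in vehicle and 102 and 75.2 CPM in propranolol, with a log2 fold change of -0.69 (adjusted p = 0.00298). Cd37, a tetraspanin, had 54.4 and 59.7 CPM in vehicle and 86.9 and 95.2 CPM in propranolol (0.67, adjusted p = 0.00110). H2-Ob, part of a regulator of class II peptide loading, had 11.8, 15.3, 9.09 and 7.65 CPM (-0.69, adjusted p = 0.0225), and Cd40, the receptor for T cell help, had 73.6, 85.9, 101 and 91.4 CPM (0.27, adjusted p = 0.0870). The list had 0 lower genes without propranolol replicate 2, 1 without vehicle replicate 2, and 2 higher genes without propranolol replicate 1. Of the 20 genes, 7 stayed under 1 CPM in every library, among them Ly6d, with 0, 1, 1 and 14 counts.

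Among 10 transcription regulators of B cells, 8 were tested, none was higher and 2 were lower, with a median of -0.26. Ikzf3, also known from T and NK cells, had 25.1 and 29.3 CPM in vehicle and 11.2 and 5.76 CPM in propranolol (log2 fold change -1.64, edgeR adjusted p = 0.000866). Ebf1, a factor of early B cells also known from stromal cells, had 8.48, 2.90, 1.29 and 0.981 CPM (-2.27, adjusted p = 0.00587). Both kept their calls with the GC correction, and without vehicle replicate 1 only 1 of the list was lower and 1 higher. Pou2f2, which encodes OCT2, was the most abundant with 109, 153, 113 and 118 CPM (-0.19, adjusted p = 0.332). Tcf3, which encodes E2A, had 92.7, 90.6, 135 and 133 CPM and a log2 fold change of 0.55, under the 1.5-fold limit (adjusted p = 0.00161).

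Of 12 plasma cell genes, 9 were tested, 1 was higher and none lower, with a median of -0.13. Sdc1, the plasma cell marker CD138, which other cells also carry, had 13.0 and 9.67 CPM in vehicle and 16.5 and 21.8 CPM in propranolol (log2 fold change 0.76, edgeR adjusted p = 0.0147, and 0.129 with the GC correction). Sdc1 was the only call of the list, and it was lost without vehicle replicate 2 or without propranolol replicate 2. With the GC correction and the replicate number as a block, 0 genes of the list were higher and 1 was lower. Txndc5, a disulfide isomerase, led the list with 132, 119, 159 and 163 CPM (0.35), followed by Xbp1, a regulator of secretion, with 144, 144, 138 and 114 CPM (-0.19, adjusted p = 0.206). Tnfrsf13b, the receptor TACI, had 42.0, 39.1, 48.6 and 51.0 CPM (0.30, adjusted p = 0.0623). Mzb1, a chaperone of antibody-secreting cells, had 0, 8, 0 and 5 counts.

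The signalling genes that B cells share with myeloid cells were abundant, and all 16 were tested. Plcg2, the phospholipase that BLNK recruits, had 235 and 233 CPM in vehicle and 344 and 368 CPM in propranolol and rose by a log2 fold change of 0.60 (edgeR adjusted p = 0.000848). Sh3bp2, an adaptor, had 203 and 258 CPM in vehicle and 372 and 373 CPM in propranolol and rose by 0.69 (adjusted p = 0.00145). The other 14 did not pass, none fell, and the list's median was 0.33. Of these, Fcgr2b, the inhibitory Fc receptor, had 863, 851, 1121 and 1001 CPM (0.31), Inpp5d, a lipid phosphatase, had 518, 543, 694 and 769 CPM (0.46), and Cd81, a tetraspanin, had 550, 564, 674 and 722 CPM (0.32). With the GC correction Fcgr2b was the only gene of the list to pass.

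**Figure D4:**
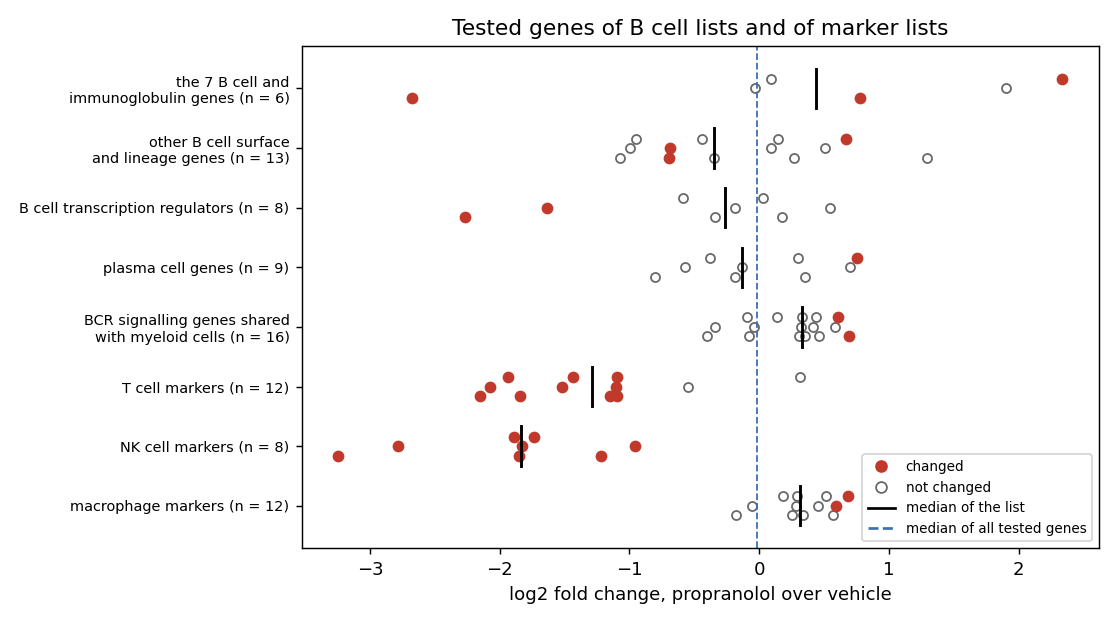
Log2 fold changes of propranolol over vehicle for the tested genes of the B cell lists and of marker lists, filled where the gene changed, with the median of each list (black bars) and of all tested genes (dashed line). The 6 tested genes lie between -2.67 and 2.33, the median of the signalling genes is 0.33, and the T cell and NK cell markers are all but 1 below the median of all tested genes.

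Markers of other cells moved with the groups, and their part in the results above was not tested. Ms4a1, Ikzf3 and Ebf1 were lower in both propranolol libraries, and so were the sums of T cell, NK cell and fibroblast and matrix markers. Of 12 T cell markers 10 were lower and none higher, and their summed level was 288 and 326 CPM in vehicle and 152 and 86.5 CPM in propranolol. Cd8a was the most abundant, and Cd3e, which defines T cells, had 35.7, 39.1, 18.3 and 8.57 CPM (log2 fold change -1.43, edgeR adjusted p = 0.00202). The changes ran from -2.15 for Trbc2, -2.08 for Cd3g and -1.94 for Cd28 to -1.10 for Cd3d and Trbc1 and -1.09 for Lck. All 8 NK cell markers were lower, summing to 152, 163, 59.9 and 32.3 CPM, with Prf1, Nkg7 and Klrd1 as the most abundant, and Ncr1, which defines NK cells, had 6.19, 6.41, 2.75 and 0.785 CPM (-1.73). The changes of NK cell markers ran from -3.24 for Klrd1, -2.79 for Klre1 and -1.89 for Gzma to -1.22 for Prf1 and -0.96 for Eomes. No defining T cell or NK cell marker was at 0. Igkc, Igha, Jchain, Cd79a and Pax5 were highest in propranolol replicate 2, the library in which the T cell and NK cell sums were lowest, while both these genes and these sums were higher in vehicle replicate 2 than in vehicle replicate 1.

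Fibroblast and matrix markers, led by Col3a1, Col1a1 and Col1a2, summed to 2770, 1038, 620 and 677 CPM, with the highest sum in vehicle replicate 1, where Ebf1 was also highest, with 6 of 8 lower and none higher, and 3 lower without vehicle replicate 1. The 6 were Dcn (-2.06), Col3a1 (-1.97), Pdgfra (-1.95), Fap (-1.54), Col1a1 (-1.29) and Col1a2 (-1.20), as log2 fold changes. Neutrophil markers, led by Csf3r, summed to 207, 224, 421 and 439 CPM, with 6 of 8 higher and none lower. These were S100a9 (2.04), S100a8 (1.33), Cxcr2 (1.31), Trem1 (1.14), Mmp9 (1.09) and Retnlg (0.79). Macrophage markers, led by Lyz2, C1qa and C1qb, summed to 23346, 22349, 29370 and 26622 CPM, with Csf1r (0.59) and Cd14 (0.68) higher and none of the 12 lower, while with the GC correction Mrc1 (0.85) passed in place of both. Conventional dendritic cell markers, led by Batf3, Dpp4 and Itgae, had 4 of 8 lower, Clec9a (-1.52), Xcr1 (-1.30), Dpp4 (-1.26) and Cd209a (-1.02), of which Clec9a alone passed with the GC correction, and summed to 61.9, 67.1, 50.1 and 36.0 CPM. Of plasmacytoid dendritic cell markers, led by Tcf4, Runx2 and Cox6a2, Runx2 alone was lower (-0.83) and the sums were 214, 180, 148 and 154 CPM, while Siglech, which defines these cells, had 3, 12, 8 and 11 counts. Cxcl13, the chemokine that attracts B cells, had 1.28 and 1.39 CPM in vehicle and 0.330 and 0.0654 CPM in propranolol and fell by 2.51 on the log2 scale (SE 0.70, edgeR adjusted p = 0.0167, and 0.0913 with the GC correction). It too passed the filter only through the vehicle libraries.

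The genes with the pattern most like the mean of the tested genes without Blnk, by Euclidean distance of centred log2 CPM over the 4 libraries, were Gm35339 (distance 0.0848), Gm6553 (0.153), Acrbp (0.155), Gm20605 (0.179) and Gm29585 (0.192). None of them is a gene of the B cell lists. The mean pattern was -0.82 and 0.18 in vehicle and -0.04 and 0.68 in propranolol, and hides that Ms4a1 ran opposite to Igkc.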

How the data were processed

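Poly-adenylated RNA of sorted TAMs was sequenced in 4 libraries. Per the labels and methods, STAR 2.7.1a (genome mm10) and SAMtools 1.9 were used for alignment and filtering, and the authors deposited raw fragment counts per gene from featureCounts 1.6.4, so that reads shared between similar immunoglobulin genes may be lost. The annotation release and strand setting are not given in the sources used here. The exons of the 7 genes overlap no other gene. Identifiers were matched to GENCODE M21 for 54079 genes and not for 67.

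With R 4.3.3 and edgeR 4.0.16, TMM factors were 1.08, 1.09, 0.914 and 0.931. Genes were filtered with filterByExpr (minimum count 10), and vehicle and propranolol were compared with the quasi-likelihood test and no covariates. The GC correction removed a spline (5 degrees of freedom) of each library's log2 CPM deviation on GC content through offsets. DESeq2 1.42.0 and limma 3.58.1 served as alternatives. TPM used the length of all exons. Replicates differed beyond sampling noise (chi-square per degree of freedom 10.6 and 13.7). The labels do not pair the samples by replicate number. The edgeR and GC steps were tested on simulated data.

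The members and lists were chosen with earlier results of these data known. Named were the 7 genes, the 3 most abundant and all changed genes of each list (of more than 6, the 3 highest and 3 lowest), the 3 most abundant variable genes, the 5 nearest genes (mean CPM of at least 1), the defining markers and Cxcl13. Cr2, Cxcr5, Ly6d, Mzb1, Bank1, Mrc1, Ighg2c, Ighe and variable genes beyond the first 3 were named after their values were seen. A defining marker of the lists is not reported here.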

Additional observations from a re-analysis of the deposited data

How the results depend on the processing

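Of all tested genes, 4084 changed (1798 higher, 2286 lower). This count was 1855 with the GC correction (1122 higher, 733 lower), 2128 with the GC correction and the replicate block, 1588 (637 higher, 951 lower) with a GC correction that keeps the TMM centring, chosen after seeing the data, 1093 with glmTreat against 1.5-fold, 728 at a log2 fold change beyond 1.5, and 3615 to 4329 with a library left out. DESeq2 called 3778 genes, and the fit without the filter on low counts called 4466 out of a larger set. As shares of all tested genes, 27.8% changed in the main test and 12.6% with the GC correction. The GC correction moved the median log2 fold change of all genes from -0.02 to 0.09. The main count of the 7 genes given next holds 2 higher genes, Igkc and Cd79b, and 1 lower gene, Ms4a1. The call of Ms4a1 supports no count, since it passed the filter only through the vehicle libraries. Of the 7 genes, 3 changed, against 1 with DESeq2, with the GC correction and with the centred GC correction, 0 with glmTreat, 5 without the filter on low counts, and 1 (without propranolol replicate 2) to 4 (without propranolol replicate 1) with a library left out. The 0 of glmTreat stood beside adjusted p from 0.0606 for Ms4a1 and 0.0854 for Igkc to 0.297 for Cd79b, with 2 of the 6 tested genes at an unadjusted p under 0.05. The fit with the replicate number as a block gave 4362 changed genes and 4 of the 7, adding Jchain (2.35, edgeR adjusted p = 0.0228). Signs turned for Ighm with the GC correction (-0.043), with the block added (-0.040) and with centring (-0.17), and for Blnk with these 3 (0.29, 0.29 and 0.17), without the filter (0.041) and without vehicle replicate 1 (0.034, the highest with a library left out, the lowest being -0.027). Summed immunoglobulin CPM of each library moved by less than 1 SD between the replicates of its group on raw library sizes and with constant genes alone, though on raw sizes propranolol replicate 1 (160) was below and propranolol replicate 2 (216) above both vehicle libraries, while variable genes alone gave 2.29, 4.14, 2.47 and 13.5 CPM. The cause was not tested. The correlation of same-numbered deviations across genes was 0.169 over 2 pairs, and the number alone does not pair the samples. Counts under about 20 in a library limit Jchain, Cd79a, Ms4a1 and the variable genes. They also limit Igkc and Igha, with 18 and 7 counts in vehicle replicate 1. Groups of 2 libraries allow no test for outlying samples.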
